A study of Mus musculus with 12 samples.

Results

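Foxk1 knockout embryoid bodies at day 10 of mesodermal differentiation were compared with Foxk1 knockout embryoid bodies at day 5, by ATAC-seq, which maps open chromatin through the DNA sites that Tn5 transposase can reach. The comparison rests on 4 of the 12 samples of the series: 2 knockout (KO) libraries labelled day 10 and 2 KO libraries labelled day 5. Mouse embryonic stem cells were kept with LIF on irradiated fibroblast feeders, separated from the feeders by a plating step, and grown as shaken aggregates in serum-containing medium with transferrin, monothioglycerol and ascorbic acid. All samples carry the label NoDox, so no doxycycline was given. For reference, 2 libraries labelled Control (day 10), 2 of the iHA-Foxk1 line without doxycycline (day 5), 2 KO libraries of day 3 and 2 iHA-Foxk1 libraries of day 3 were used. The labels used here do not give the deleted part of Foxk1, the number of KO clones, the line behind the Control samples, or whether replicate libraries stem from separate cultures.

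Open chromatin falls into broad classes. The starts of genes in wide use are open in most cell types and are usually rich in CpG, while distal sites, often enhancers, open and close as cells change type. Foxk1 is a forkhead transcription factor that, with its relative Foxk2, is known to bind promoters of autophagy genes and to affect glycolysis. In embryoid bodies, cells leave pluripotency, pass through mesoderm and form beating cardiac muscle, endothelium and blood over this span of days.

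The members of the comparison are peak summits, 1 position per peak with a score, on chromosomes 1 to 19 and X. The KO day 10 lists held 4028 and 4755 summits, against 48391 and 42129 in the KO day 5 lists. The 4028 highest scores of each library were kept (the length of the shortest list), and summits within 250 bp of each other were merged, giving 7336 regions. Rank 1 is the highest score of a list. This kept 100% and 84.7% of the day 10 lists but 8.32% and 9.56% of the day 5 lists, so whole lists at day 10 stand beside only the best ranks of day 5. The last scores kept were 1.85 and 4.25 at day 10 and 66.7 and 50.5 at day 5, and the first left out had the same values to 3 digits in the 3 libraries that were shortened. These are values within each list and cannot be set against each other as strengths of opening.

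Label conflicts bear on every result below. In both files labelled KO day 5 the peaks themselves are named D7, and the label was followed. The files of both day 10 groups lack the duplicate-removal tag that all files of days 3 and 5 carry, so day and processing cannot be told apart. With 2 against 2 libraries the smallest two-sided exact permutation p is 0.333, so no test was made, and differences are set beside the spread between replicates.

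A region was called at day 10 only when both KO day 10 libraries and neither KO day 5 library held it, and at day 5 only in the reverse case. Of 4427 regions held by both libraries of at least 1 day, 930 (21.0%) were called at day 10 only, 978 (22.1%) at day 5 only, and 1468 were held by all 4 libraries. What separated the called sets was their place in the genome. Of the day 10 only regions, 111 (11.9%, 95% Wilson interval 10.0 to 14.2%) lay within 1 kb of a gene start, 325 (34.9%) inside a gene body and 494 (53.1%) elsewhere. Of the day 5 only regions, 868 (88.8%, 86.6 to 90.6%) lay at a gene start, 51 inside a gene body and 59 elsewhere. The intervals cover counting error only. Regions in all 4 libraries resembled the day 5 only set in this, with 1255 (85.5%) at gene starts. The median distance to a gene start was 28224 bp for day 10 only regions, 50 bp for day 5 only regions and 49 bp for regions of all 4 libraries.

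Promoter sequences of 6 genes are shown as examples of gene starts called at one day. Day 5 only regions lay at the starts of Hey2, a repressor downstream of Notch in the heart, Isl1, a homeodomain factor of second heart field progenitors, Cycs, the somatic cytochrome c of the respiratory chain, and Psmc6, an ATPase subunit of the proteasome. Day 10 only regions lay at the starts of Cdkn1b, the cell cycle inhibitor p27, and Paics, an enzyme of purine synthesis. Each sequence is from RefSeq (GRCm38.p6, the assembly of mm10), runs 5′ to 3′ on the gene's own strand from 250 bases before its start to 50 after, and has in capitals every match to the 6 motifs searched on both strands: CCGGAAG (ETS factors), CCAAT (NF-Y), GGGCGG (the GC box of Sp factors), CACGTG (the E-box), TATAAA (the TATA box) and TGTTTAC (forkhead factors). None of these motif words contains another.
Hey2, chr10:30842734-30843033, minus strand: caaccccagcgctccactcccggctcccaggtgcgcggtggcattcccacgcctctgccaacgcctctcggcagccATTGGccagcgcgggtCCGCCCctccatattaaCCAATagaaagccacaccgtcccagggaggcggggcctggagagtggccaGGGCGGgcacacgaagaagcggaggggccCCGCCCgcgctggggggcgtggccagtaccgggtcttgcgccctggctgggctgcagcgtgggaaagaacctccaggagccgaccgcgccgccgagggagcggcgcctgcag
Isl1, chr13:116309639-116309938, minus strand: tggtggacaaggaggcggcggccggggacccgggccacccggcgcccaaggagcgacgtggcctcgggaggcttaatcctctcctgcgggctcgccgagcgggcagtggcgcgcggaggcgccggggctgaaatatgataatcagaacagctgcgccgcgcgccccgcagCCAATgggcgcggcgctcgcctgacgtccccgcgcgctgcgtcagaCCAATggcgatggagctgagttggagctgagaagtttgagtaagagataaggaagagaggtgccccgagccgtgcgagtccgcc
Cycs, chr6:50566520-50566819, minus strand: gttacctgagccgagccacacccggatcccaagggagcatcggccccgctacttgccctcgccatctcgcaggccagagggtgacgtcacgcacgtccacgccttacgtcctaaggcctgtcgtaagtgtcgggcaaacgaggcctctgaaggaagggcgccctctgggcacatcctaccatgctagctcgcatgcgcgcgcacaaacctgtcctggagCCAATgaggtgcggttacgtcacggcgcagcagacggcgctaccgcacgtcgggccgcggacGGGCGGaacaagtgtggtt
Psmc6, chr14:45329574-45329873, plus strand: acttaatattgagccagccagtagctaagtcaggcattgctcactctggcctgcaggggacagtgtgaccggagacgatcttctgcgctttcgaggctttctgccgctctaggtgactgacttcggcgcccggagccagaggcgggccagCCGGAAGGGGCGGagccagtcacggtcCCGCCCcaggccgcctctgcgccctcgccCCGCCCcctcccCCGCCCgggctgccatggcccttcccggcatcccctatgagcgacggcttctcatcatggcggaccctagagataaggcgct
Cdkn1b, chr6:134920151-134920450, plus strand: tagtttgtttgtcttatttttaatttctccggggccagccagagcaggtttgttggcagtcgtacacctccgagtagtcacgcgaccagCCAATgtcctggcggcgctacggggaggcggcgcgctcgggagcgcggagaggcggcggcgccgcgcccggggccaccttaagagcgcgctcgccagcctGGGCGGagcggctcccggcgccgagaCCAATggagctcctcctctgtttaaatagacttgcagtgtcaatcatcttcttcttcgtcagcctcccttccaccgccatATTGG
Paics, chr5:76951052-76951351, plus strand: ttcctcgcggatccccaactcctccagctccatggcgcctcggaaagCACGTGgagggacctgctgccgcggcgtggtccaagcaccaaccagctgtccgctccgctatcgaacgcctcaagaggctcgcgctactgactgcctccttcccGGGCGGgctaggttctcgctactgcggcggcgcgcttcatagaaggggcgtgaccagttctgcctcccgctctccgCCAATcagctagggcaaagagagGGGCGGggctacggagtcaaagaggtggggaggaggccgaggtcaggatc
The Hey2 window held 2 CCAAT and 3 GGGCGG matches and the Isl1 window 2 CCAAT matches. In Psmc6 there was 1 CCGGAAG match and 4 GGGCGG matches, and in Cdkn1b 3 CCAAT matches and 1 GGGCGG match. None of the 6 windows held TGTTTAC or TATAAA.

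Over the gene starts whose strand and sequence were to hand, promoters of the called sets were GC-rich. Sequences matched 87 of the 111 day 10 only, 737 of the 868 day 5 only and 1063 of the 1255 shared gene-start regions. Median GC content was 66.3% at day 10 only, 62.3% at day 5 only and 65.7% at shared promoters, against 56.7% over all 21045 promoters. A ratio of observed to expected CpG under 0.6 was found in 14.9% of day 10 only, 18.2% of day 5 only and 6.77% of shared promoters, and in 51.9% of all. GGGCGG stood in 74.7% of day 10 only, 73.7% of day 5 only and 84.2% of shared promoters, against 46.7% of all. CCAAT stood in 48.3% of day 10 only, 48.8% of day 5 only and 54.9% of shared promoters, against 38.5% of all. CCGGAAG stood in 16.1% of day 10 only, 21.3% of day 5 only and 18.9% of shared promoters, against 11.7% of all. CACGTG stood in 14.9% of day 10 only, 11.5% of day 5 only and 10.6% of shared promoters, against 7.91% of all. TATAAA stood in 3.45% of day 10 only, 5.43% of day 5 only and 2.63% of shared promoters, fewer than the 12.7% of all. The forkhead word TGTTTAC stood in 4.60% of day 10 only (4 promoters), 2.04% of day 5 only (15) and 1.60% of shared promoters, against 3.03% of all. A match is only a word in a window and is not a bound site. Summits of day 5 only regions lay at a median of 28 bp before the gene start, with 97.3% within 300 bp, those of shared regions at 83 bp before it, with 93.5% within 300 bp, and those of day 10 only regions at 37 bp before it, with 67.8% within 300 bp.

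The share of gene starts in each library showed the same split. Among the 4028 best-ranked summits, 56.2% and 61.1% lay at gene starts in the KO day 10 libraries, against 88.1% and 87.3% in the KO day 5 libraries. The groups did not overlap: the means were 58.7 ± 3.49% at day 10 and 87.7 ± 0.527% at day 5 (SD, n = 2 each), and the difference of −29.0 percentage points was larger than the spread between replicates. Gene bodies held 16.1 ± 1.37% of day 10 and 4.84 ± 0.0702% of day 5 summits, and sites elsewhere 25.2 ± 2.12% and 7.47 ± 0.456% (SD, n = 2 each). This direction depends on comparing equal numbers of summits. Over full lists the difference reversed to 28.4 points, and gene starts made up 28.4% and 32.3% of the full KO day 5 lists, whose lower ranks are mostly distal. With the 2014 best ranks of every library, where neither day enters whole, the difference was −34.3 points. That cut still took a far larger part of the day 10 lists (4028 and 4755 summits) than of the day 5 lists (48391 and 42129). It therefore does not remove the inequality of list length.

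**Figure D1:**
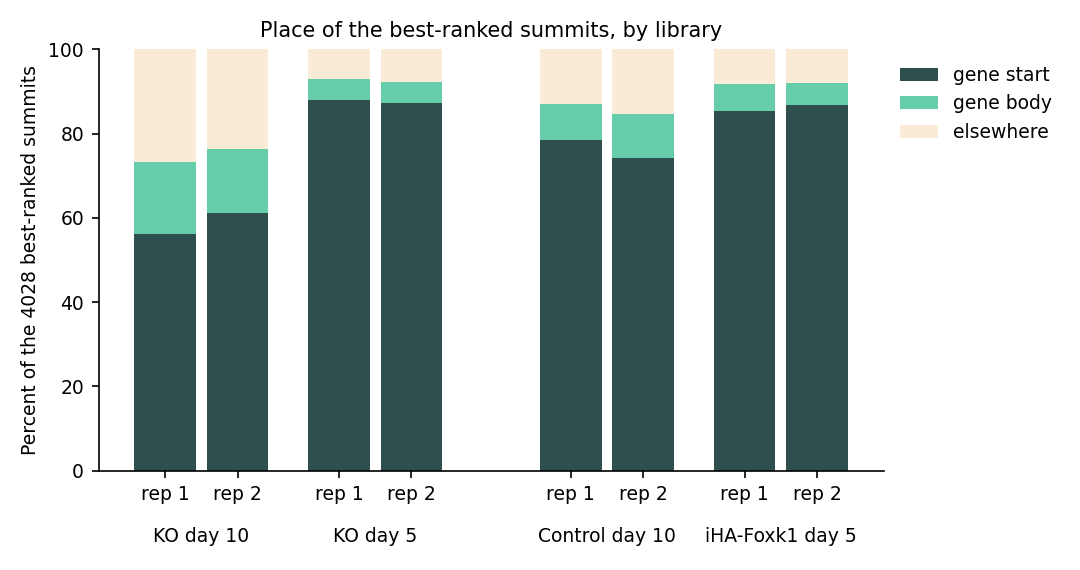
Stacked bars give, for each library, the percent of its 4028 best-ranked summits within 1 kb of a gene start, inside a gene body or elsewhere. KO day 10 libraries have 56.2% and 61.1% at gene starts, below the 88.1% and 87.3% of KO day 5 and below the 78.4% and 74.3% of Control day 10.

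The control arm moved the same way by less. Control day 10 libraries had 78.4% and 74.3% of their 4028 best summits at gene starts, against 85.4% and 86.8% in iHA-Foxk1 day 5 libraries, a difference of −9.78 points. Whether the KO and control differences differ was not tested, and the 2 control groups carry different line labels. The call rule in the control arm gave 618 day 10 only regions (16.6% of 3733) with 33.0% at gene starts, and 381 day 5 only regions (10.2%) with 81.4% at gene starts. Of the KO day 10 only regions 358 were also day 10 only in the control arm, which is 38.5% of the 930 and 57.9% of the 618. Of the KO day 5 only regions 115 were also day 5 only in the control arm, 11.8% of the 978 and 30.2% of the 381. These control calls need both iHA-Foxk1 day 5 libraries, of which replicate 1 stands apart: its list held 14519 summits against 34040 in replicate 2, and it shared 55.1% of its best summits with replicate 2. Its part in these counts was not tested.

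Replicates of day 10 shared fewer summits with each other than replicates of day 5. Of the 4028 best summits, 62.0% had a partner within 250 bp between the KO day 10 replicates, and 82.9% between the KO day 5 replicates. Between the days the share was 48.3 to 54.0% over the 4 pairs, mean 51.0%. KO day 10 libraries shared 58.9 to 61.8% with Control day 10 libraries, close to the 62.0% they shared with each other. Summits at exactly the same base made up 1.49% between the day 10 replicates and 12.6% between the day 5 replicates. The day 10 shares cover whole or nearly whole lists (100% and 84.7% kept). Those of day 5 cover only the best ranks (8.32% and 9.56% kept), so these shares do not compare like parts of the lists.

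Day 10 only regions of better rank groups lay farther from gene starts. Sorted by the worse of its 2 ranks and split into 4 equal groups, the best group (ranks 21 to 405) had 4 of 233 regions at gene starts (1.72%) and a median distance of 45804 bp. The next groups had 7.30%, 14.2% and 24.6% at gene starts. Day 5 only regions had 89.8%, 92.2%, 90.6% and 82.4% from best to worst group. Their best group spanned ranks 8 to 2137, so the groups of the day 5 only and day 10 only sets do not compare like ranks. The very first day 5 only regions also lay away from gene starts. Day 10 only regions also lay closer together: 202 of 930 (21.7%) had another within 10 kb, in 82 runs of up to 6 regions, against 16 of 978 day 5 only regions. The longest runs were 6 regions over 17.7 kb at Duxf3 on chromosome 10, a gene of a tandem array of near-identical copies where reads cannot be placed with certainty, and 6 regions over 11.8 kb next to Pisd on chromosome 5. On chromosome 14 lay 9.14% of day 10 only, 2.86% of day 5 only and 3.95% of shared regions. Leaving out all regions in runs kept 728 day 10 only regions, 13.7% of them at gene starts, an alternative added after the data were seen.

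**Figure D2:**
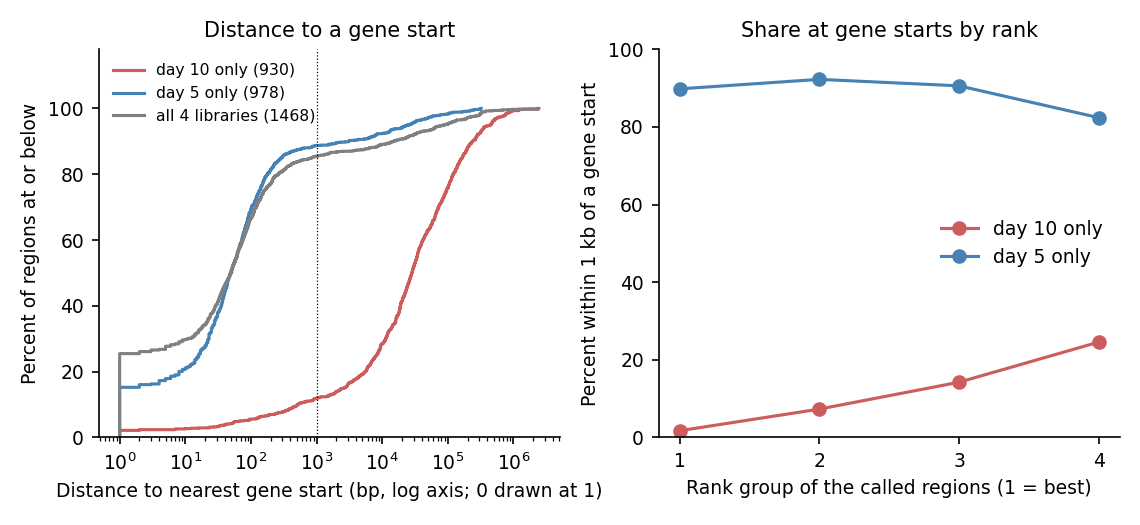
Left, the percent of regions within a given distance of the nearest gene start (log axis, dotted line at 1 kb) for 930 day 10 only, 978 day 5 only and 1468 shared regions; medians are 28224, 50 and 49 bp. Right, the percent at gene starts by rank in 4 equal groups (1 is best), which climbs through the day 10 only regions to 24.6% and is lowest at 82.4% in day 5 only regions. The groups span unlike ranks in the day 10 only and day 5 only sets.

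Day 10 only regions were looked up in the libraries that the call did not use. At the same number of summits, 50.2% and 58.2% of the 930 had a summit in Control day 10 replicates 1 and 2, against 5.05% and 4.84% in the iHA-Foxk1 day 5 libraries and 2.04% and 2.37% in the KO day 3 libraries. In full lists the values were 82.9% and 78.7% in Control day 10, 10.6% and 42.7% in iHA-Foxk1 day 5, and 27.7% and 30.8% in KO day 3. Both full Control day 10 lists held 653 regions (70.2%) and neither held 80, while both held 42.0% at the same number of summits. In the full KO day 5 lists 567 day 10 only regions (61.0%) had no summit within 250 bp, while 140 had one in 1 replicate and 223 in both, at a median rank of 18710 and 14789 in replicates 1 and 2. No summit in any of the 8 lists of days 3 and 5 was found for 349 regions (37.5%), and 235 of these were in both Control day 10 lists. Of the 235, 4 lay at gene starts, 85 in gene bodies and 146 elsewhere.

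Most day 5 only regions were already listed at day 3. KO day 3 libraries held 70.7% and 68.9% of the 978 at the same number of summits and 99.4% and 99.0% in full lists. Control day 10 libraries held 45.3% and 41.2% at the same number of summits and 90.7% and 74.4% in full lists, which are longer than the KO day 10 lists. Both Control day 10 lists held 253 of them among their 4028 best ranks, 239 of these at gene starts. In the full KO day 10 lists 863 of the 978 were without a summit and 115 had one in replicate 2, below rank 4028. Less opening at day 10 cannot be told apart from a day 10 list that ended earlier.

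**Figure D3:**
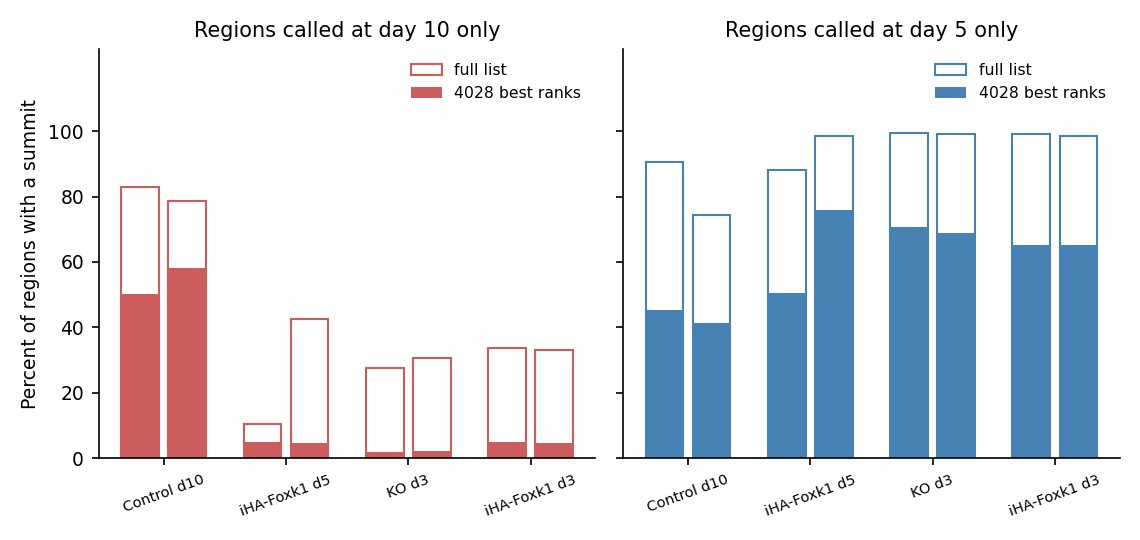
Bars give the percent of day 10 only (left) and day 5 only (right) regions with a summit within 250 bp in 8 libraries that the call did not use, replicate 1 beside replicate 2; filled bars use the 4028 best ranks and open bars the full list. Day 10 only regions are frequent in Control day 10 (50.2% and 58.2%) and rare in the other filled bars, while day 5 only regions are frequent in all.

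Ranks of the best day 10 only regions were nearly equal in KO and Control. Among the 100 best, 96 were in both Control lists, 94 had a worse rank within 1.5-fold of the KO one, 65 had no summit in any list of days 3 and 5, and 1 lay at a gene start. Abcb11, the bile salt export pump, is the nearest gene of chr2:69355571-69355635, which ranked 30 and 30 in KO day 10, 26 and 25 in Control day 10, and was in none of the 8 earlier lists. The region chrX:143483044-143483072, 35519 bp from Pak3, a neuronal kinase gene, ranked 34 and 33 in KO day 10 and 35 and 34 in Control day 10. Near Rfc3, a replication factor C subunit, chr5:151734601-151734608 ranked 52 and 53 in KO day 10 and 54 and 53 in Control day 10. Other best-ranked day 10 only regions had Col19a1, Gm2244, Alkbh8 (2 regions near chr9:3002140-3007225), 2210408I21Rik, Dpy19l1, Diaph3, Ajap1 and Gm9631 as nearest gene, at 25994 to 942137 bp. Some of these had earlier summits. The Col19a1 region had one 117 bp away at rank 3 in every iHA-Foxk1 list of days 3 and 5. The Dpy19l1 region had one at rank 78 in KO day 3 replicate 1, and the Ajap1 region at rank 86 in iHA-Foxk1 day 5 replicate 2. Further down the ranks differed more: over regions in both Control lists, the median ratio of Control to KO rank was 1.11 in the best of the 4 rank groups. It was 3.76 in the next group and then fell to 2.59 and 1.75. The Control day 10 lists are longer than the KO day 10 lists, so their ranks can run higher. No list of artefact-prone regions was applied, and the part of repeated sequence in these best ranks was not tested.

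**Figure D4:**
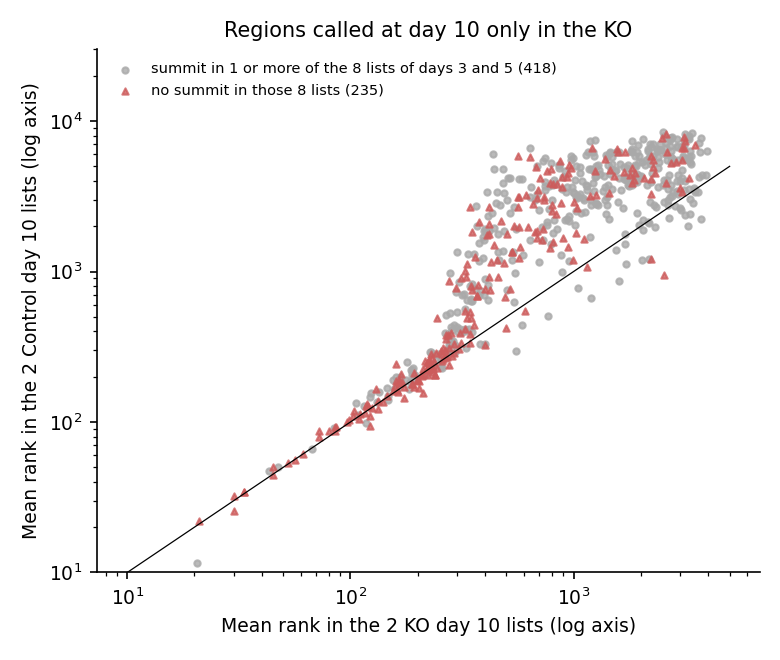
Each point is 1 of the 653 day 10 only regions present in both Control day 10 lists, by its mean rank in the KO day 10 lists and in the Control day 10 lists (log axes, line of equality). Triangles mark the 235 without a summit in any of the 8 lists of days 3 and 5; points follow the line at the best ranks and lie mostly above it further down.

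At the best day 5 only ranks the same neighbourhoods came up beside ordinary gene starts. The first was chr1:24614710-24614710 near Col19a1, with ranks 8 and 7 in KO day 5 and no summit in any other group, 1275 bp from the day 10 only region chr1:24613431-24613435 of ranks 21 and 20 in KO day 10. Tmem125, Esp38 (2 regions), Sfi1, Gm7361 and Alkbh8 (2 regions) followed, none of them at a gene start. The first gene starts were those of Hook1, a microtubule-linked adaptor (ranks 294 and 174 in KO day 5), Khdrbs2, an RNA-binding protein (297 and 205), Dzip3, a ubiquitin ligase (198 and 380), and N6amt1, a methyltransferase subunit (353 and 413). Of these 4, none was in KO day 10 replicate 1, and Dzip3 stood at rank 4058 in replicate 2, just past the ranks kept. All 4 were in both Control day 10 lists, Hook1 at ranks 2017 and 4016.

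Gene starts called at day 10 only were few, 111 (3.48%) of 3187 reproducible gene-start regions, against 868 (27.2%) called at day 5 only. Of the 111, 103 had a KO day 5 summit within 1 kb in the full lists, 67 of them within 250 bp, and 8 had none within 1 kb. Cdkn1b (chr6:134920308-134920353) ranked 1663 and 3105 in KO day 10 and 4453 and 4065 in KO day 5, so it lay just outside the day 5 ranks kept. Sf3b2, a splicing factor of the U2 particle, ranked 3493 and 3996 in KO day 10 and 4580 and 4300 in KO day 5. Paics (chr5:76951226-76951260) ranked 1536 and 626 in KO day 10, and the nearest KO day 5 summits lay 281 and 255 bp away, just beyond the merging distance. Oasl1, an interferon-induced gene, held a region 698 bp from its start at ranks 275 and 245 in KO day 10 and 260 and 264 in Control day 10, with no summit in the lists of days 3 and 5. Adgrf2, an adhesion G protein-coupled receptor, held one 574 bp from its nearer gene end (strand not known), at ranks 318 and 361 in KO day 10. This region ranked 432 and 394 in Control day 10, and among earlier lists stood only in iHA-Foxk1 day 3, at ranks 28310 and 40582.

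Gene lists were read against all genes with a region. Of 21631 protein-coding genes, 3771 had a reproducible region within 100 kb. Of these 3771, 564 (15.0%) had a day 10 only region, 956 (25.4%) a day 5 only region, and 42 both. Over 27 lists with 1341 genes, 315 had a region, 44 of them a day 10 only and 89 a day 5 only region. These shares, 14.0% and 28.3%, are close to those over all genes, and most lists of cell types had too few regions to compare.

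Regulators of cardiac progenitors had 8 of 39 genes with a region, 3 of them at day 10 only and 4 at day 5 only. At the Hey2 start, chr10:30842884-30842953, no summit was listed in either KO day 10 library, against ranks 565 and 1314 in KO day 5. The Control day 10 libraries held it at ranks 572 and 719, and the nearest KO day 10 summits lay 39792 and 224414 bp away. Isl1 (chr13:116309769-116309791) was likewise unlisted in KO day 10, at ranks 3441 and 3616 in KO day 5 and 3131 and 3391 in Control day 10. Hey1, a relative of Hey2, was unlisted in KO day 10 and at 1150 and 3023 in KO day 5, with 2606 and 1152 in Control day 10. A KO day 10 replicate 2 summit lay 290 bp from the Hey1 region, just beyond the merging distance. Nr2f1, an orphan nuclear receptor, had a day 5 only region 33252 bp from its start (ranks 3292 and 2605), which the Control day 10 lists lacked as well. On the day 10 side, Bmp10, a ligand of the trabecular heart muscle, had a region 28490 bp away at ranks 190 and 187 in KO day 10, 9153 and 5096 in KO day 5 and 198 and 231 in Control day 10. Tbx5, a T-box factor of the first heart field, had one 9676 bp from the nearer gene end (strand not known). It ranked 864 and 488 in KO day 10 and 2950 and 7013 in Control day 10, with no summit in KO day 5. Smarcd3, a cardiac subunit of the BAF remodelling complex, had one inside the gene at 2293 and 1559 in KO day 10 that neither the KO day 5 nor the Control day 10 lists held.

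Lists of other cell types are given by their counts, beside 3771 of 21631 over all genes, and no test was made. Among contractile and calcium genes of cardiomyocytes 3 of 40 had a region, with Myl4, the atrial and embryonic light chain, at day 5 only: it was listed at rank 4708 in KO day 10 replicate 2 alone, against 1450 and 2424 in KO day 5. Pluripotency genes had 3 of 24, with a day 10 only region 9669 bp from Zfp42 at ranks 3251 and 3018 in KO day 10. Endothelial genes had 2 of 28, with Erg, an ETS factor, at day 10 only (2716 and 2175 in KO day 10, 11040 and 10316 in KO day 5). Haematopoietic genes had 2 of 28, with 2 day 10 only regions at Fcgr3, an Fc receptor. The better ranked of these had a summit in every other list too, at ranks 7422 and 5510 in KO day 5. Endoderm genes had 2 of 33, with a day 10 only region 95659 bp from Apoa1, an apolipoprotein, and inside another gene. The Apoa1 region had a KO day 5 replicate 1 summit at rank 35133. Smooth muscle and epicardial genes had 2 of 20, both regions in all 4 libraries. No region lay near the 26 streak and epiblast, 23 paraxial and skeletal muscle, 39 Hox or 38 fibroblast (feeder) genes. Of 5 neural genes with a region, Tfap2b, Tubb3 and Neurog2 had day 10 only and Map2 and Tfap2a day 5 only regions; those of the first 3 lay 14681 to 65207 bp from their starts.

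Defining markers of 8 cell types were looked up at their gene starts. Of 43 markers, 0 had a summit in both full KO day 10 lists and 24 in both full KO day 5 lists, among them all 6 pluripotent, 4 of 6 fibroblast (feeder) and 3 of 7 cardiomyocyte markers (Actn2, Ryr2 and Nkx2-5). Within the 4028 best ranks the counts were 0 at day 10 and 1 at day 5 (Map2). No share over all gene starts is given beside these counts, so they cannot be read as particular to the markers. Marker accessibility and list length cannot be told apart here. Control day 10 had 1 and iHA-Foxk1 day 5 had 7 in both full lists. The label of the day 10 tissue could therefore not be checked from these lists, and a change in the mix of cells cannot be told apart from a change within cells.

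Signalling lists held a few calls on either side. In the Wnt list 11 of 54 genes had a region, 2 at day 10 only and 1 at day 5 only. Ror2, a receptor of noncanonical Wnt ligands, had an intragenic region (chr13:53269907-53269969) at ranks 135 and 131 in KO day 10 and 127 and 116 in Control day 10, and in no list of days 3 and 5. Tcf7l2, a nuclear effector of Wnt signalling, had one at 1259 and 725 in KO day 10, against rank 40973 in KO day 5 replicate 2 alone. Axin1, a scaffold of the β-catenin destruction complex, was at day 5 only (2879 and 2555), and stood at 4217 in KO day 10 replicate 2. Of 9 Notch genes with a region, Mfng, a glycosyltransferase that modifies Notch, and Rbpj, its DNA-binding effector, had day 10 only regions. Hey2 and Hey1 were among those with day 5 only regions. Rbpj also had a region in all 4 libraries. Its day 10 only region lay inside the gene, 6962 bp from the start, at ranks 3813 and 2865 in KO day 10. The Mfng region lay 2723 bp from the nearer gene end, as the strand was not known. It ranked 146 and 184 in KO day 10 and 199 and 179 in Control day 10. Of 9 BMP and TGF-β genes, Bmp10 was at day 10 only and Acvr2b, a type II activin receptor, and Id4, an inhibitor of bHLH factors, at day 5 only.

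Metabolic and proteolytic lists had more genes at day 5 only than at day 10 only, as did all genes (15.0% at day 10 only and 25.4% at day 5 only), and no test was made. In glycolysis 13 of 30 genes had a region, 0 at day 10 only and 5 at day 5 only: Hk1 and Hk2, the hexokinases of the first step, Aldoa, Pfkp and Ldhb, all at their gene starts. At Hk1 a KO day 10 replicate 2 summit lay 285 bp from the region, just beyond the merging distance. Hk2 was unlisted in KO day 10, at 2104 and 2866 in KO day 5 and 2158 and 4102 in Control day 10. Of 7 proteasome genes with a region, 0 were at day 10 only and 5 at day 5 only (Psmd8, Psmc6, Psma6, Psma1 and Psma3), the other 2 being in all 4 libraries. Psmc6 (chr14:45329686-45329713) was unlisted in KO day 10, at 2853 and 2472 in KO day 5, and at 1232 and 1059 in Control day 10. Oxidative phosphorylation had 17 of 43 genes with a region, 2 at day 10 only (Ndufb3 and Atp5a1) and 5 at day 5 only (Cycs, Sdha, Cox7c, Cox8a and Ndufa4). The day 5 only regions lay at the gene starts. The day 10 only regions lay 27562 bp from the Ndufb3 start and 2274 bp from the nearer end of Atp5a1, whose strand was not known. Cycs (chr6:50566559-50566657) was unlisted in KO day 10, at 943 and 1455 in KO day 5, and at 1327 and 1538 in Control day 10. Of 13 autophagy genes with a region, Pik3c3, a lipid kinase, and Atg7, a conjugating enzyme, had day 10 only regions, and Atg9a, Bnip3 and Atg10 day 5 only regions at their gene starts. The day 10 only regions lay 3588 bp from the nearer end of Pik3c3 (strand not known) and 34372 and 57168 bp from the Atg7 start. Ldhb was unlisted in Control day 10 as well as in KO day 10, while Hk2, Psmc6 and Cycs were in both Control day 10 lists.

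Growth and housekeeping lists are given by their counts, beside the 15.0% at day 10 only and 25.4% at day 5 only over all genes; no test was made. Of 17 cell cycle genes with a region, Cdkn1b and Cdk6 were at day 10 only and Ccnb1 (cyclin B1), Cdkn2c, Mcm6, Mki67 and Cdt1 at day 5 only. The Cdk6 region lay inside the gene, 92175 bp from its start. Ccnb1 was unlisted in KO day 10, at 901 and 1573 in KO day 5, and in Control replicate 1 alone at 3358. Splicing factors had 16 genes with a region, 2 at day 10 only and 2 at day 5 only, and ribosomal protein genes 13, with 0 and 1 (Rpl27). Mitochondrial ribosomal protein genes had 14, with 1 at day 10 only (Mrps27) and 2 at day 5 only. DNA repair and chromatin genes had 14, with Hdac2, Mre11a, Kdm6a and Chek1 at day 5 only. Hdac2, a histone deacetylase, was unlisted in KO day 10, at 954 and 964 in KO day 5, and at 1857 and 2339 in Control day 10. Early response and stress genes had 12, with 1 at day 10 only and 3 at day 5 only. Nfe2l2, the oxidative stress factor Nrf2, had both kinds: a region 43628 bp away at ranks 270 and 242 in KO day 10 and 219 and 239 in Control day 10, and its own start at 2005 and 917 in KO day 5 and unlisted in KO day 10. Zinc finger (Zfp) genes, the longest list, had 123 of 397 with a region, 18 at day 10 only and 42 at day 5 only, with 36 of the 42 day 5 only regions at gene starts.

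**Figure D5:**
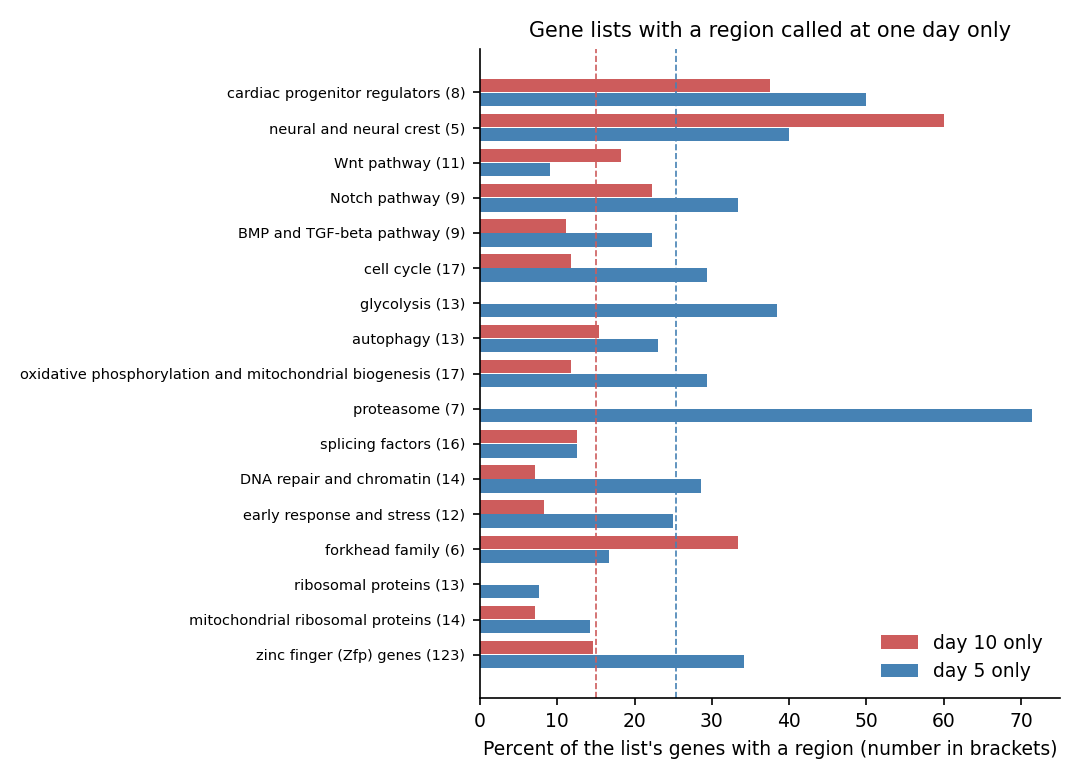
For each list with at least 5 genes that have a reproducible region (number in brackets), bars give the percent of these genes with a day 10 only and with a day 5 only region. Dashed lines mark the shares over all 3771 genes, 15.0% at day 10 only and 25.4% at day 5 only; no error is drawn, since each list gives 1 count.

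The targeted gene and its family were checked last because no list can test the knockout. The Foxk1 start (gene 17425, chr5:142401416-142401513) was listed at rank 3954 in KO day 10 replicate 1 and not in replicate 2, against 7071 and 9691 in KO day 5. Inside Foxk1 a region at chr5:142440536-142440609 was unlisted in KO day 10 and at 4872 and 4322 in KO day 5. Open chromatin at a gene does not show whether its protein is made. Foxk2 (gene 68837), the closest relative, had its start unlisted in KO day 10 and at 2940 and 5211 in KO day 5, with 4683 and 3044 in Control day 10. Of 6 forkhead genes with a region, Foxj2 and Foxn3 had day 10 only regions. Foxo6 had a day 5 only region 615 bp from its nearer gene end (strand not known), at ranks 3035 and 3398 in KO day 5.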

How the data were processed

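ATAC-seq was measured in 12 libraries, of which the 4 KO libraries of days 10 and 5 enter the comparison and 8 serve as reference. Bowtie2 2.2.4 and MACS2 were the authors' tools and mm10 their build, per the submitters' processing notes, which name no MACS2 version. The deposited files hold 1 summit per peak and library with a −log10 p-value or q-value as score, and no source used here says which. Read depth is unknown, so the number of summits per list was the only depth-like value. Replicates were not pooled.

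Scores served to order summits inside their own list and for nothing else. Summits on chromosomes 1 to 19 and X were kept, each list was reduced to its 4028 highest scores, and summits were joined by single linkage at 250 bp. Gene starts came from RefSeq (GRCm38.p6): for 17274 of 21631 protein-coding genes (79.9%) the start was known by strand, and otherwise the nearer gene end was used. A gene start region lay within 1 kb, and a region was given to the nearest gene within 100 kb. All symbols of the lists matched. Some list members are not reported here. The members and lists were chosen with earlier results of these data known. Genes were named by a rule: the 12 best-ranked called regions of each day by the worse of 2 ranks, up to 4 called members per list, and Foxk1, Foxk2 and Hey2; regions at gene starts, the promoters printed and Oasl1, Adgrf2 and Paics were picked after their values were seen. The calling code was run on simulated lists of equal length, with well separated regions and no cut by rank, and it recovered the regions made. How the calls fare with lists of unlike length, the cut by rank or nearby summits was not tested. No model was fitted, and no column of another series was used. Alternatives were the number of summits, merging distance, absence rule, window, gene distance and leaving out each library. Python 3.11.15, numpy 2.4.6 and pandas 2.3.3 were used.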

Additional observations from a re-analysis of the deposited data

Results flagged for a closer look

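Summits on chromosome Y, which the comparison leaves out, made up 0.823 ± 0.0153% of the full KO day 10 lists (33 and 40 summits), against 0.340 ± 0.00565% of the full KO day 5 lists (167 and 142 summits; SD, n = 2 each). The KO day 10 share stood out because it was also above that of the Control day 10 lists, 0.449 ± 0.0349% (45 and 37 summits). Among iHA-Foxk1 day 5 lists the share was 0.132 ± 0.0120%. The lists differ in length and the numbers on Y are small, and the difference was not tested.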

How the results depend on the processing

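No paired analysis was possible because the calls come from no test, and a presence call on 2 against 2 lists has no model to take a replicate block. Of 90 values under another setting, 54 stayed within the tolerance, 35 moved and 1 reversed. The tolerance was 1.5-fold for counts, the counting interval for shares of regions and the larger replicate SD for the gene-start difference. For the sharing difference it was the SD over the 4 across-day library pairs, 2.46 points. The reversal was the gene-start share of summits, day 10 minus day 5, at 28.4 points with all summits against −29.0; with N divided by 2 it was −34.3. All summits gave 623 day 10 only and 29194 day 5 only regions, with 8.51% and 31.8% at gene starts, 1036 list genes at day 5 only, and a difference of sharing within and across days of 30.2 points against 21.5. N divided by 2 gave 621 and 543 regions, 22 and 46 list genes and a sharing difference of 26.3 points. Absence judged in full lists of the other day left 567 day 10 only regions, with 7.76% at gene starts and 27 list genes, against 863 at day 5 only. The day 10 only share at gene starts was 16.0% with merging at 100 bp, 9.03% with absence within 1000 bp and 9.68% in a 500 bp window. Within 10 kb, 19 list genes had a day 10 only region. By the nearer end of every gene, an alternative added after the data were seen, 81.5% of day 5 only regions lay at gene ends. Of the day 10 only regions 70.2% were in both full Control day 10 lists and 42.0% in both at the same number of summits.

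Leaving out a library loosens the rule of both replicates, at N kept. Day 10 only counts then ran from 983 to 1881 and day 5 only counts from 1360 to 1503. The shares at gene starts ran from 15.7 to 25.1% at day 10 only and from 87.0 to 90.2% at day 5 only, and the difference per library from −31.5 to −26.5 points. Sharing within minus across days ran from 10.1 to 33.9 points, and list genes from 46 to 93 at day 10 only and from 120 to 138 at day 5 only. Without KO day 10 replicates 1 and 2 the day 10 only counts were 1695 and 1881, and the day 5 only count was 1503 without replicate 2. Without KO day 5 replicate 1 the day 5 only count was 1479. Of 95 named day 10 only regions 70, and of 85 named day 5 only regions 75, were still called with absence judged in full lists; N divided by 2 left 80 and 51. Short day 10 lists limit all calls of absence at day 10.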

Other observations

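The highest score of every list fell at one place: chr2:98666965-98667214, nearest to Lrrc4c but 2348796 bp from it, held rank 1 in all 12 libraries of the series. No list of artefact-prone regions was applied. The 12 best-ranked regions in all 4 libraries held none at a gene start, though 85.5% of the 1468 did. Day 10 only regions at the starts of Tom1, Sp4, Nr1d2 and Hdlbp lay beside another region of the same gene start that all 4 libraries held, and 25 of the 111 (22.5%) had another region held by both KO day 5 libraries at the same gene start. These genes were picked after their values were seen.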
